A study of Mus musculus with 11 samples.

Results

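Uridine phosphorylase 2 (Upp2), indolethylamine N-methyltransferase (Inmt), lipin 1 (Lpin1) and thyroxine-binding globulin (Serpina7) are 4 liver genes that were listed together because their level in mouse liver 36 h after paracetamol (acetaminophen, APAP) was described as lying away from the levels at 24 h and 48 h. They were picked by name out of the 31053 genes of the count tables, and all 4 passed the low-count filter. The members were thus chosen by the measured levels at 24 h, 36 h and 48 h, so those levels are given as a description without a test, and tests are kept for the comparison with uninjured liver and for the position of transcripts within a section. Section by section, the description held for Upp2 alone. In both 36 h sections Upp2 lay above all 24 h and 48 h sections, Inmt did so only in section A, Lpin1 only in section B, and Serpina7 in neither, since its 36 h levels lay between those of 24 h and 48 h.

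The study followed APAP-induced liver injury with the Visium assay, which captures polyadenylated RNA of a frozen liver section by position, in barcoded spots that each take up RNA from several cells. Of the 11 sections, 3 came from uninjured liver at 0 h (replicates 2, 3 and 4), and 8 from injured liver, which the labels call POD and the series' design text APAP, with 2 at 24 h, 2 at 36 h (A and B each) and 4 at 48 h (A to D). Per the study's methods the animals were adult C57BL/6JCrl mice, male unless stated otherwise, kept under a light-dark cycle, fasted before a single intraperitoneal dose of APAP, and 1 mouse liver was used per time point for this assay. Strain, age and sex are not in the sample labels, and no transgene is named. The sections of a time may therefore share a mouse: n counts sections, each p measures sections only and leaves out the spread between animals, and mouse and time cannot be told apart. The hour of the day at which livers were collected, and whether food was back, are not given in the sources used here.

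After the spot filter the sections held 1490 to 3466 spots and 31292663 to 67045372 UMIs, with a median of 15168.5 to 29950 UMIs per spot. Hepatocyte transcripts were abundant in every section (6 marker genes, summed level 72897 to 114754 CPM), where CPM is a gene's count scaled to a common library size, here with TMM factors. The 36 h sections differed from each other. Of 7093 genes with a mean of at least 10 CPM, 450 differed more than 2-fold between 36 h A and B, against 157 between 24 h A and B. Summed markers of myofibroblasts were 124 CPM in 36 h A and 384 CPM in 36 h B (4 of 4 genes higher in B), of neutrophils 20.9 and 60.3 CPM (4 of 4), of mononuclear phagocytes 448 and 623 CPM (4 of 4), of endothelia 202 and 325 CPM (7 of 7), of cholangiocytes 597 and 903 CPM (3 of 4) and of red blood cells 271 and 1185 CPM (4 of 4). The cholangiocyte sum was mostly Krt8 (568 CPM in A and 878 in B). Of its other genes, Epcam was 1.07 and 1.71 CPM, Krt19 0.90 and 3.77 and Cdh1 27.1 and 18.7. The sum therefore does not show more cholangiocytes in B. Hepatocyte markers summed to 81806 CPM in A and 99076 in B (5 of 6 genes higher in B). None of these markers was at 0 in a 36 h section. What part cell content had in the levels below was not tested, and in such bulk sums fewer cells of a type and less RNA per cell cannot be told apart.

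The 4 proteins act in separate branches of hepatocyte metabolism. Upp2 splits uridine into uracil and ribose 1-phosphate, the entry to pyrimidine breakdown, and the liver is known as a main site of uridine turnover. Inmt is a cytosolic enzyme that methylates tryptamine and other small amines with S-adenosylmethionine. Lpin1 dephosphorylates phosphatidic acid to diacylglycerol on the way to triglyceride, is known to be induced in liver by fasting, glucocorticoid and glucagon signals, and also acts in the nucleus as a partner of PPARα and PGC-1α. Serpina7 is a serpin without protease-inhibitor function that hepatocytes secrete into plasma, where it carries thyroid hormone. Hepatocytes differ along the line from the portal field to the central vein, and APAP, which is activated by cytochrome P450 enzymes of central hepatocytes, kills them around the central vein.

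All 4 are protein-coding genes. On GRCm38 (the assembly of mm10), GENCODE places Upp2 (ENSMUSG00000026839) at chr2:58567298-58792971 on the plus strand, Inmt (ENSMUSG00000003477) at chr6:55170626-55175043, Lpin1 (ENSMUSG00000020593) at chr12:16535669-16610966 and Serpina7 (ENSMUSG00000031271) at chrX:139079257-139085236, the last 3 on the minus strand. The 250 bases before 1 annotated start of each gene are shown because genes whose levels are compared over time are often read for shared promoter letters. The table holds 6 starts, and the upstream Upp2 start and a Serpina7 start whose window overlaps the printed one (chrX:139085220-139085469) are not shown. The sequences are RefSeq's of GRCm38.p6, written 5′ to 3′ along the gene, and capitals mark matches on either strand to AGGTCA (the half-site of many nuclear receptors) or GTTAAT (the half-site of HNF1).
Upp2, downstream start, chr2:58754934-58755183: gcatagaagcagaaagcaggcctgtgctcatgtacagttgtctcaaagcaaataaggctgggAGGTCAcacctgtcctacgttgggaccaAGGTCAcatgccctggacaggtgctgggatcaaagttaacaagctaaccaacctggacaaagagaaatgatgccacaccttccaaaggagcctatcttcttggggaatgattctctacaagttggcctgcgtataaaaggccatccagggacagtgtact
Inmt, chr6:55174991-55175240: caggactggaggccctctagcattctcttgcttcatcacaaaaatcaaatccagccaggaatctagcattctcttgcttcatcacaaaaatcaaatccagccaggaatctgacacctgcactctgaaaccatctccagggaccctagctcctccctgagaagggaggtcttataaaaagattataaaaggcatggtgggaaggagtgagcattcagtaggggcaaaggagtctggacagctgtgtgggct
Lpin1, chr12:16610967-16611216: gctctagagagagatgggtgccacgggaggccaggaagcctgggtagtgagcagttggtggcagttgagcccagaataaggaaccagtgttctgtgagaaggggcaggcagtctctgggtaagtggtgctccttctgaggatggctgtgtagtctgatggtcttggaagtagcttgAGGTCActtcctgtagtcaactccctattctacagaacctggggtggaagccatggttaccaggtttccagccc
Serpina7, chrX:139085237-139085486: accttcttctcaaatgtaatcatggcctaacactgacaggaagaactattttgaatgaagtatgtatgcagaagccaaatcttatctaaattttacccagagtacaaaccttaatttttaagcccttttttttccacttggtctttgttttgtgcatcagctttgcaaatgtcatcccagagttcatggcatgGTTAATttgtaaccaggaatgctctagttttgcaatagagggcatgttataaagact
The window of the downstream Upp2 start held 2 AGGTCA matches and that of Lpin1 held 1. Of 32851 promoter windows of the same length in the table, 14.0% held at least 1. The Serpina7 window held 1 GTTAAT match, as 6.43% of windows did, and so did the window of the upstream Upp2 start (chr2:58567084-58567333). The Inmt window held neither. None of these windows held CACGTG (the E-box of the clock factors, 6.02% of windows) or TTATGNAA (a D-box form, 3.07%). The letter matches do not overlap each other, and they are a description of these windows, not of binding. The assay counts 3′ ends, so which Upp2 start was used was not measured.

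Upp2 had the widest course over time of the 4 on the log2 scale. Its level was 126, 91.2 and 88.5 CPM in the 0 h sections 2, 3 and 4, was 7.46 and 5.46 CPM in 24 h A and B, stood at 341 and 433 CPM in 36 h A and B, and was 104, 34.6, 58.5 and 35.4 CPM in 48 h A to D. No 24 h section overlapped any other time, both 36 h sections lay above all others, and the 48 h sections overlapped 0 h through section A. The 36 h mean was 387 ± 64.5 CPM (SD, n = 2) against 6.46 ± 1.42 at 24 h (n = 2) and 58.2 ± 32.8 at 48 h (n = 4). The log2 fold change with its standard error was 5.90 ± 0.58 from 24 h to 36 h and -2.73 ± 0.39 from there to 48 h. Against 0 h it was -3.97 ± 0.51 for the 24 h sections, 1.93 ± 0.42 for the 36 h sections and -0.81 ± 0.35 for the 48 h sections, so the 36 h level also lay above uninjured liver.

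Inmt, by contrast, depended on which 36 h section was read. It was abundant at 0 h, with 1326, 1320 and 909 CPM in replicates 2, 3 and 4, and low at 24 h, with 70.0 and 37.7 CPM in A and B. At 36 h it was 2028 CPM in section A and 228 CPM in section B, an 8.89-fold difference. At 48 h it was 462, 379, 246 and 275 CPM in A to D. Both 36 h sections lay above both 24 h sections, whereas relative to 48 h section A lay above all 4 and section B below all 4. The 36 h mean of 1128 ± 1273 CPM (SD, n = 2) therefore describes neither section. The log2 fold change was 4.39 ± 0.86 (SE) from 24 h to 36 h and -1.73 ± 0.62 from there to 48 h. From group means the latter log2 difference was 0.58 without 36 h A, with the sign turned.

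Lpin1 showed a gap between the 36 h sections of the opposite sign. It was 74.7, 87.2 and 100.5 CPM in the 0 h sections, 31.9 and 36.4 CPM at 24 h, 34.0 CPM in 36 h A, 181 CPM in 36 h B, and 29.2, 12.5, 19.5 and 16.3 CPM in 48 h A to D. Section 36 h A lay within the 24 h range, and section 36 h B lay above every other section, 5.33-fold above A. The log2 fold change was 1.66 ± 0.63 (SE) from 24 h to 36 h and -2.47 ± 0.51 from there to 48 h, and without 36 h B the log2 difference of mean CPM for 36 h against 24 h was -0.0069. All 48 h sections lay below all 0 h and 24 h sections.

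Serpina7 had no peak or trough at 36 h. Its level was 62.1, 47.9 and 19.9 CPM in the 0 h sections, 61.3 and 88.3 CPM in 24 h A and B, 53.3 and 25.0 CPM in 36 h A and B, and 3.20, 3.74, 6.11 and 8.48 CPM in 48 h A to D. From 24 h on, each time lay below the one before without overlap, and the 0 h sections spanned the 36 h values. The log2 fold change was -0.93 ± 0.58 (SE) from 24 h to 36 h and -2.86 ± 0.49 from there to 48 h. Against 0 h the log2 difference was 0.79 ± 0.52 at 24 h, -0.15 ± 0.53 at 36 h and -3.00 ± 0.46 when 48 h was reached, and all 4 sections of that last time lay below all 7 others.

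**Figure D1:**
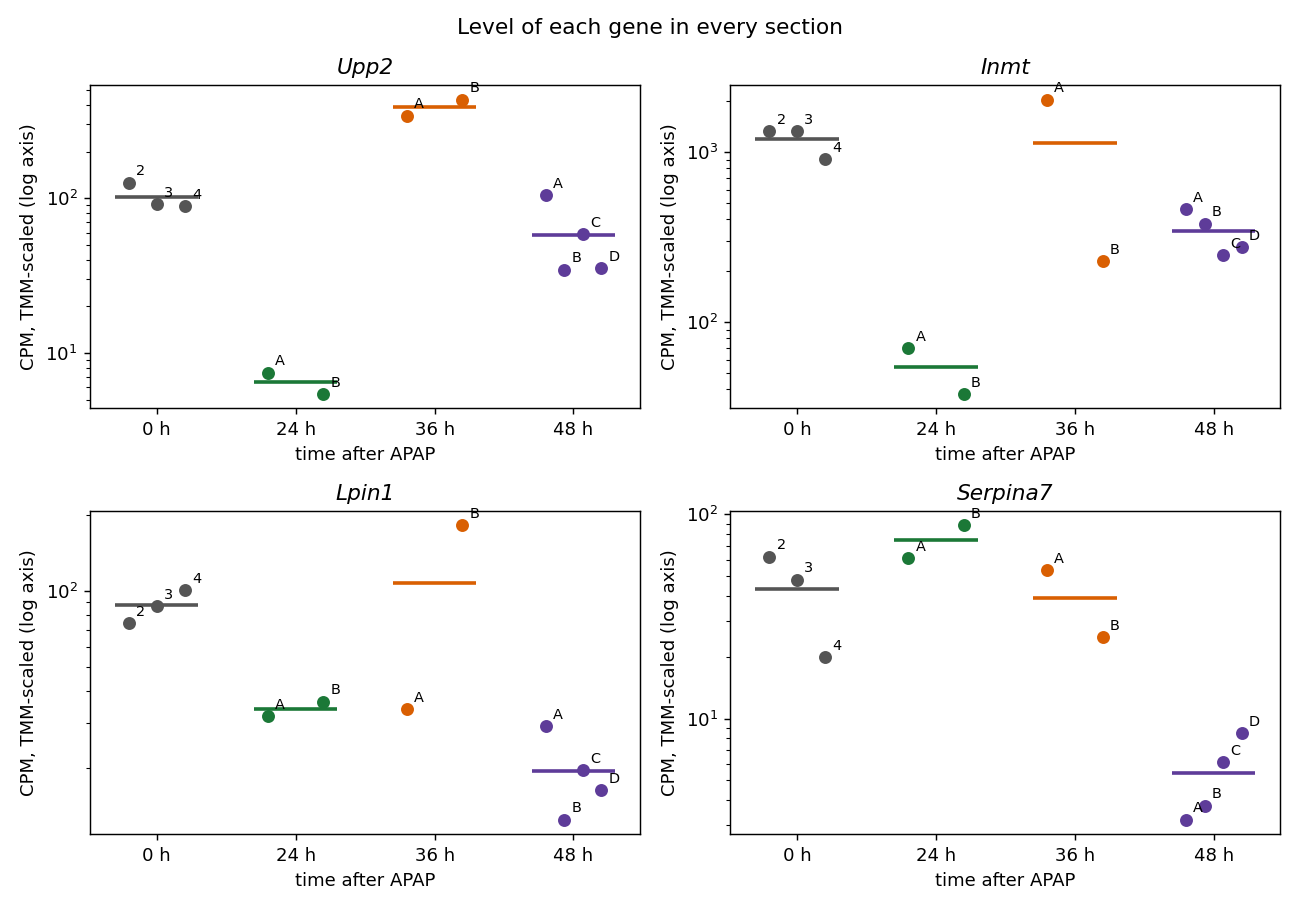
Level of Upp2, Inmt, Lpin1 and Serpina7 in each of the 11 sections, in TMM-scaled CPM on a log axis, by time after APAP. Points are sections with their replicate name and bars are group means. Both 36 h sections of Upp2 (341 and 433 CPM) sit above all others, whereas the 36 h sections of Inmt (2028 and 228 CPM) and Lpin1 (34.0 and 181 CPM) lie far apart.

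Set against all genes, 730 of 14821 genes tested (4.93%) had both 36 h sections above all 24 h and 48 h sections and 703 (4.74%) had both below. Of the members only Upp2 was among them. Section 36 h A alone lay above all 24 h and 48 h sections for 16.9% of genes, among them Upp2 and Inmt, and section 36 h B alone for 17.1%, among them Upp2 and Lpin1. In edgeR's quasi-likelihood fit of the section sums, 15.6% of genes were called in 36 h against 24 h and 3.05% in 48 h against 36 h (adjusted p under 0.05). Genes called in both and higher at 36 h were 56 (0.378%), and genes called in both and lower at 36 h were 34 (0.229%). Upp2 was 1 of the 56, and because these values chose it nothing is read from that.

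The 56 and 34 genes were picked by their steps into and out of 36 h alone, so they need not share the course of Upp2 at other times. By the smaller of the log2 fold changes into and out of 36 h, the leading genes on the higher side beside Upp2 were Ciart, a repressor within the circadian clock (0.56 CPM at 24 h, 11.3 at 36 h and 0.56 at 48 h), Usp2, a ubiquitin hydrolase with rhythmic expression (2.12, 34.9 and 5.55 CPM), Per3, a period gene (1.29, 26.7 and 4.51 CPM), and Slc2a4, the insulin-responsive glucose transporter (0.10, 2.80 and 0.50 CPM). On the lower side they were Npas2, a partner of BMAL1 (1.70, 0.24 and 2.60 CPM), the predicted gene Gm10451 (0.74, 0.12 and 0.71 CPM), the chemokine Ccl4 (9.34, 2.38 and 8.34 CPM), the immediate early gene Egr1 (38.4, 12.4 and 48.4 CPM) and the tubulin Tubb2a (249, 65.5 and 184 CPM). These are group means. At 0 h the mean was 102 CPM for Upp2, against 0.18 for Ciart, 2.16 for Usp2, 0.86 for Per3 and 0.26 for Slc2a4. Unlike Upp2, these genes were thus low at 0 h as well as at 24 h. The count of 56 depended on which sections were read. It became 89 when 36 h A was left out, 191 when 36 h B was, 89 when 48 h A was and 10 when 48 h B or 48 h C was. It lay between 18 and 31 when any other section was left out. The count of 34 became 7 when 48 h B was left out, 8 when 48 h C was, 12 to 17 when any 0 h section, 24 h A or 48 h D was, and 22 to 41 otherwise. DESeq2 gave 148 and 118. With the injured sections alone in the edgeR fit the counts were 2 and 2. With the section letter added to that fit as a block they were 0 and 0.

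The gap between sections A and B at 36 h was wide for Inmt and Lpin1 even against other genes. Only 0.183% of the 7093 genes differed by as much on the log2 scale as Inmt, and 0.522% by as much as Lpin1. Serpina7 was 2.13-fold higher in 36 h A (5.47% of genes differed by as much), and Upp2 was 1.27-fold higher in 36 h B (39.2%). At 24 h the larger level exceeded the smaller 1.86-fold for Inmt, 1.44-fold for Serpina7, 1.37-fold for Upp2 and 1.14-fold for Lpin1. Which of mouse, slide or handling moved with this gap cannot be told apart from the labels.

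**Figure D2:**
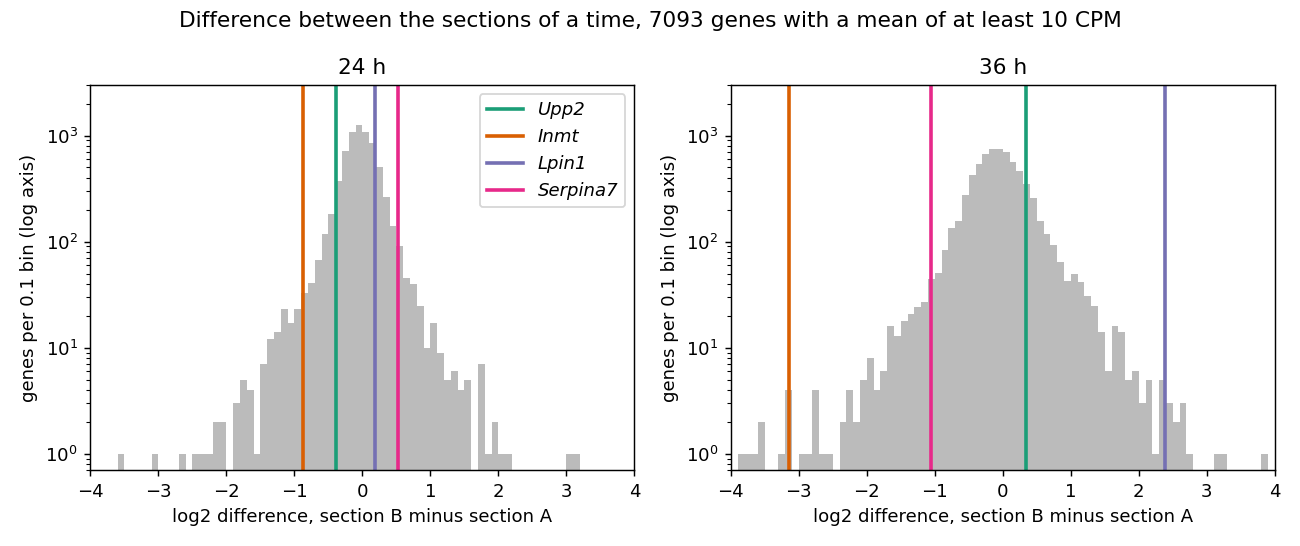
Histograms of the log2 difference between sections B and A over 7093 genes with a mean of at least 10 CPM, at 24 h (left) and 36 h (right), with a log count axis and coloured lines for the 4 genes. At 36 h Inmt lies in the far left tail (8.89-fold higher in A) and Lpin1 in the far right tail (5.33-fold higher in B), whereas Upp2 lies near the centre.

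The comparison of all 8 injured sections with the 3 uninjured ones, in which 24 h, 36 h and 48 h are weighted by their sections, is another contrast than the one that chose the members, though it reads the same injured sections. All 4 were lower on average in injured liver, in a comparison where 46.5% of all genes were called, so that such a call was common. The average joins times that differed: Inmt in 36 h A (2028 CPM) lay above every 0 h section, and Serpina7 lay below all 0 h sections at 48 h alone. Inmt fell by 2.03 on the log2 scale (SE 0.47, edgeR adjusted p = 0.00611), and its call held in all 16 alternatives, with adjusted p up to 0.0288. The other members' calls did not all hold. Lpin1 had a log2 fold change of -1.35 ± 0.39 (adjusted p = 0.0178), which reached -0.90 and an adjusted p of 0.0654 with libraries scaled by total counts, and adjusted p = 0.0578 without 0 h replicate 4. Serpina7 had -1.34 ± 0.37 (adjusted p = 0.0147), with an adjusted p between 0.000814 and 0.0915 over the alternatives and 5 of 16 losing the call, including those without 0 h replicate 2 or 3 and without 48 h A or B. Upp2 had -0.91 ± 0.30 (adjusted p = 0.0310) and lost the call in 6 of 16 alternatives (adjusted p 0.00136 to 0.295), including those without either 24 h section and without 0 h replicate 2 or 3. This mean joins a level far below 0 h at 24 h with one above it at 36 h.

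Spot by spot the same courses appeared as shares of spots with a UMI. After every spot was thinned to 2000 UMIs, Upp2 was seen in 51.1% and 56.4% of spots in 36 h A and B, against 18.1%, 13.2% and 11% in the 0 h sections, 1.03% and 1.19% at 24 h, and 7.45% to 20.9% at 48 h. Without thinning the shares were 62.0% to 82.9% at 0 h, 9.65% and 12.5% at 24 h, 97.2% and 98.9% at 36 h and 59.2% to 77.4% at 48 h. Barcodes off the tissue held Upp2 at 236 and 341 unscaled CPM in 36 h A and B, and what part RNA away from its cells had in these shares was not tested. Inmt was seen in 98.2% of thinned spots in 36 h A and 35.1% in 36 h B (100% and 92.6% without thinning), and Lpin1 in 7.77% and 31.3% (42.2% and 91.4%). Serpina7 reached 3.57% to 14.6% of thinned spots up to 36 h and 0.549% to 1.86% at 48 h, where it is near the level of single UMIs (22.1% to 61.1% and 5.78% to 18.1% without thinning). In spots poor in hepatocyte transcripts (defined below), which should hold less of each, thinned spots with Upp2 were 4 of 12 in 36 h A and 2 of 7 in 36 h B, and with Inmt 12 of 12 and 1 of 7, which are few spots. Barcodes off the tissue carried all 4 genes in every section.

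After thinning, counts per spot were mostly so low that their spread lay near that of counting noise. At 2000 UMIs the variance over the mean ran from 0.990 to 1.20 for Upp2, 1.01 to 1.22 for Inmt, 0.956 to 1.06 for Lpin1 and 0.982 to 1.21 for Serpina7 over the 11 sections, where 1 is the value of counting noise alone. Moran's I, the correlation of a spot with its neighbours, was at most 0.067 for Upp2 (36 h B), 0.107 for Inmt (48 h A), 0.022 for Lpin1 and 0.040 for Serpina7. These weak values in sparse counts are given as a description and cannot show that a gene had no pattern. In 0 h section 2 Serpina7 had a variance over mean of 1.12 and a Moran's I of -0.0042. Yet it stood there at 90.9 unscaled CPM in the central and 17.7 in the portal class (defined below).

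Position along the lobule was read from a zonation score built on central and portal gene modules of the study, which hold none of the 4 genes. The spots of each section that were not poor in hepatocyte transcripts were ordered by the score, and the sums of the most central and the most portal 1 in 3 spots (the central and the portal class) were compared with edgeR, with the section as a block. Outside the modules, the central class had a called excess of 7 of 7 central check genes at 0 h, of 3 at 24 h, of 1 at 36 h and of 6 in the 48 h sections, and 7 of 8 portal check genes (such as Ass1 and Pck1) were called higher in the portal class at 0 h, 24 h and 36 h and 8 of 8 at 48 h. The central and portal module scores opposed each other across spots at 0 h (Pearson's r -0.66 to -0.58) but less at 24 h (-0.38 and -0.19) and 36 h (-0.24 in A, 0.01 in B), and at 48 h r ran from -0.01 to 0.22, so the classes of injured sections are less sharply central and portal.

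Serpina7 was higher in the central than in the portal class at every time, though least so in 36 h B. In unscaled CPM (by the UMI total of the class alone, without TMM), the central class held 90.9 against 17.7 in the portal class in 0 h section 2, 71.1 against 14.3 in section 3 and 29.7 against 5.81 in section 4. Along 5 equal bins of the score in 0 h section 2, from portal to central, it was 16.5, 22.5, 38.2, 63.8 and 103. At 24 h the classes held 96.7 against 24.6 in A and 131 against 46.9 in B. At 36 h they held 92.2 against 29.6 in A and 30.0 against 20.9 in B. At 48 h central levels of 5.54, 7.34, 9.64 and 15.8 stood against portal levels of 2.19, 1.94, 3.91 and 5.39 in A to D. The central class was higher in 11 of 11 sections. The fitted log2 differences, central minus portal, were 2.28 ± 0.16 at 0 h (SE, adjusted p = 1.54e-05), 1.52 ± 0.17 at 24 h (adjusted p = 0.000393), 1.08 ± 0.21 at 36 h (adjusted p = 0.0260) and 1.29 ± 0.26 at 48 h (adjusted p = 0.00482). Among all genes 17.0%, 20.4%, 5.21% and 37.9% were called at these times. The 36 h call was lost without section A (0.46, adjusted p = 0.397).

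Inmt leaned to the centre in uninjured liver and to the portal side at 48 h. At 0 h the central class held 1227, 1262 and 834 unscaled CPM against 918, 917 and 615 in the portal class, a fitted log2 difference of 0.38 ± 0.05 (adjusted p = 6.36e-06). At 24 h and 36 h the sections did not share a direction, with 2057 against 2368 in 36 h A and 248 against 236 in 36 h B. The fitted log2 differences there were -0.06 ± 0.09 (adjusted p = 0.674) and -0.20 ± 0.07 (adjusted p = 0.101). The 24 h sign turned with total-count scaling or narrower outer classes, and the 36 h value was called without section B (-0.36, adjusted p = 5.77e-05), with scores from all UMIs (-0.36, adjusted p = 0.00633) and with no low-count filter (-0.20, adjusted p = 0.0289), but was 0.0034 without section A. At 48 h it was 464, 385, 244 and 281 in the central against 604, 484, 342 and 350 in the portal class of A to D, a log2 difference of -0.59 ± 0.05 (adjusted p = 1.4e-10).

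Upp2 showed no called difference at 0 h, with 96.1, 78.0 and 68.2 unscaled CPM in the central and 105, 71.2 and 73.1 in the portal class (log2 difference -0.09 ± 0.07, adjusted p = 0.423). At 24 h its counts were low (-0.45 ± 0.22, adjusted p = 0.173). At 36 h the portal class was higher in both sections, with 423 against 324 in A and 480 against 424 in B. That log2 difference was -0.39 ± 0.07 (adjusted p = 0.00262) and lost its call without section A (-0.24, adjusted p = 0.340). At 48 h the portal class held 137, 47.1, 86.4 and 48.7 against 99.1, 31.2, 54.1 and 33.8 in the central class of A to D, a log2 difference of -0.77 ± 0.06 (adjusted p = 1.07e-08).

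Lpin1 leaned to the portal side in uninjured liver, while at 24 h its sections did not share a direction on unscaled levels. At 0 h the portal class held 63.7, 78.6 and 88.6 unscaled CPM against 53.9, 60.7 and 71.6, a log2 difference of -0.37 ± 0.05 (adjusted p = 8.18e-06). At 24 h the portal class held 35.8 against 28.5 in A but 35.2 against 36.8 in B. The fitted log2 difference there was -0.34 ± 0.09 (edgeR adjusted p = 0.00726). It was -0.12 without section A, and its call was lost with total-count scaling. In 36 h B, where Lpin1 was high, the portal class held 194 and the central class 186, and in 36 h A they held 34.6 and 39.3. The fitted values were -0.09 ± 0.07 at 36 h (adjusted p = 0.605) and -0.02 ± 0.07 at 48 h (adjusted p = 0.886). The sign of both depended on the scaling, and with total-count scaling the 48 h value was called on the central side (0.20, adjusted p = 0.0181).

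Whether the zone difference itself changed was tested in the same fit. Between 24 h and 36 h no member's did by the threshold, with adjusted p from 0.329 to 0.958 and 2.31% of genes called. For Serpina7 the change was -0.44 ± 0.28, and -1.06 (adjusted p = 0.000376) without 36 h A. Between 36 h and 48 h, where 1.94% of genes were called, the difference moved toward the portal side by -0.38 ± 0.09 for Upp2 (adjusted p = 0.0442) and -0.39 ± 0.08 for Inmt (adjusted p = 0.0167). The Upp2 call was lost in 10 of 17 alternatives (adjusted p 4.45e-05 to 0.492) and the Inmt call in 5 of 17 (7.43e-06 to 0.272), among them those without 36 h B or without 48 h A, B or C for either gene, and for Upp2 also those without 48 h D and without 0 h replicate 2 or 4. For Lpin1 (0.07 ± 0.10, adjusted p = 0.811) and Serpina7 (0.21 ± 0.35, adjusted p = 0.858) it was not called, but for Serpina7 it was 0.86 (adjusted p = 0.00775) without 36 h A.

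**Figure D3:**
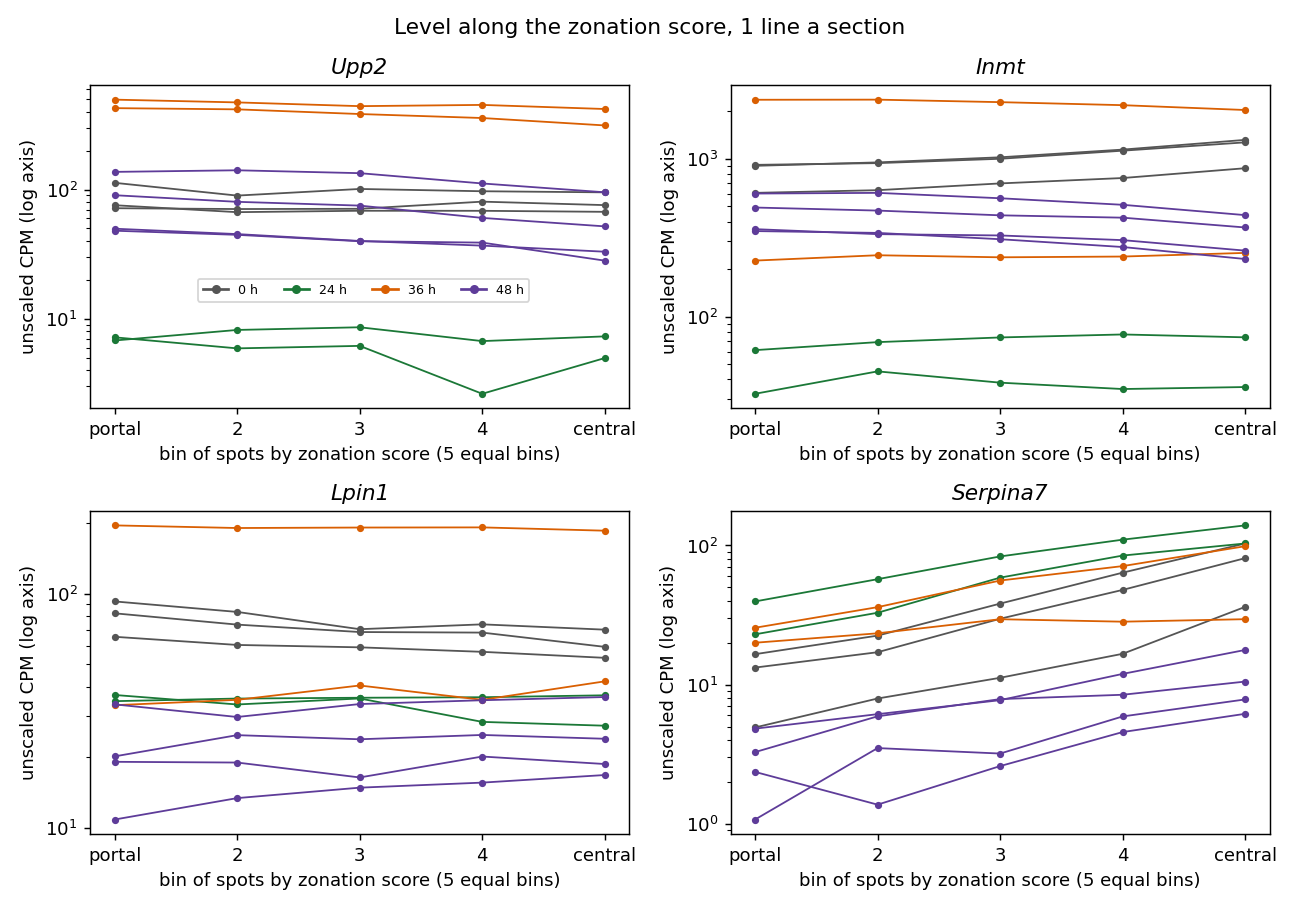
Unscaled CPM of each gene in 5 equal bins of the spots ordered by zonation score from portal to central, on a log axis, with 1 line per section coloured by time. Serpina7 climbs toward the central bin, from 16.5 to 103 in 0 h section 2, while Upp2 and Inmt at 48 h slope the other way.

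Distance from tissue poor in hepatocyte transcripts was read from hepatocyte-low spots, those scoring for hepatocyte genes under the lowest 1% of uninjured spots. Such spots made up 2.55% to 6.66% of the passing spots at 48 h but 0.344% to 0.992% at 24 h and 36 h, no more than at 0 h (0.859% to 1.38%). The earlier rings are therefore small (39 to 126 spots), and whether they lie beside damage was not tested. The score includes Hp, which was 2392 to 3569 CPM at 0 h but 14446 and 21788 CPM in 24 h A and B. What part Hp had in these shares was not tested. Spots touching them were compared with spots at least 3 steps away, by edgeR with the section as a block. Ring spots also had a zonation score 0.0467 to 0.0761 higher than far spots in each injured section, against -0.0403 to 0.0132 at 0 h. What part that had was not tested. The hepatocyte content of ring and far spots was not compared, so its part in the differences below was not tested either.

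Upp2 and Inmt were lower next to hepatocyte-low spots at 36 h and 48 h. At 36 h Upp2 stood at 271 unscaled CPM beside them and 379 far from them in A, and at 343 and 458 in B, a fitted log2 difference of -0.65 ± 0.08 (adjusted p = 5.73e-09). At 48 h the adjacent levels of 78.5, 31.2, 48.2 and 26.0 stood against far levels of 133, 40.7, 83.6 and 44.5 in A to D (-0.96 ± 0.06, adjusted p = 4.25e-25). Adjacent spots were lower in 6 of 6 sections. Inmt went the same way in 6 of 6, from 1760 against 2249 in 36 h A and 202 against 241 in 36 h B to 370, 346, 217 and 219 against 580, 445, 333 and 335 at 48 h. Its log2 differences were -0.53 ± 0.08 at 36 h (adjusted p = 1.55e-07), with adjusted p = 0.068 without section A, and -0.81 ± 0.05 at 48 h (adjusted p = 2.52e-26). Measured on unscaled levels, without the fit, the 0 h sections gave log2 differences of -0.10 to -0.04 for Upp2 and -0.27 to -0.11 for Inmt. The same measure was -0.48 and -0.42 for Upp2 and -0.35 and -0.25 for Inmt in 36 h A and B. At 48 h it ran from -0.79 to -0.39 for Upp2 and from -0.65 to -0.37 for Inmt. Inmt in 36 h B thus lay within the 0 h range. At 24 h neither was called (-0.02 ± 0.30, adjusted p = 0.991, and -0.23 ± 0.12, adjusted p = 0.402). Over all genes 4.45%, 5.77% and 42.7% were called at 24 h, 36 h and 48 h.

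Serpina7 had the opposite sign. It was 131 against 55.8 unscaled CPM in 36 h A and 33.2 against 25.7 in 36 h B, a log2 difference of 0.84 ± 0.16 (adjusted p = 0.000115), of which 0.17 (adjusted p = 0.888) was found without section A. At 24 h it was 91.3 against 60.1 in A and 124 against 83.3 in B (0.38 ± 0.11, adjusted p = 0.0387), and without A or B the adjusted p was 0.624 or 0.214. At 48 h it was 0.28 ± 0.12 (adjusted p = 0.0600), and 7 of 13 alternatives called it. The adjacent level was higher in 8 of 8 injured sections, whereas the 0 h sections gave log2 differences of -1.16 to -0.23. Lpin1 was lower beside hepatocyte-low spots at 36 h, with 31.2 against 37.6 in A and 132 against 192 in B (-0.66 ± 0.13, adjusted p = 0.000225, and adjusted p = 0.411 without section B). The other times gave no call, with -0.37 ± 0.16 for 24 h (adjusted p = 0.221) and -0.14 ± 0.07 for 48 h (adjusted p = 0.0827, with the sign turned by total-count scaling). On unscaled levels the log2 difference of Lpin1 was -0.27 in 36 h A and -0.54 in 36 h B, against -0.38 to 0.19 at 0 h. Section 36 h A thus lay within the 0 h range. With a ring of 2 steps the 36 h calls of Upp2, Inmt and Lpin1 were lost.

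**Figure D4:**
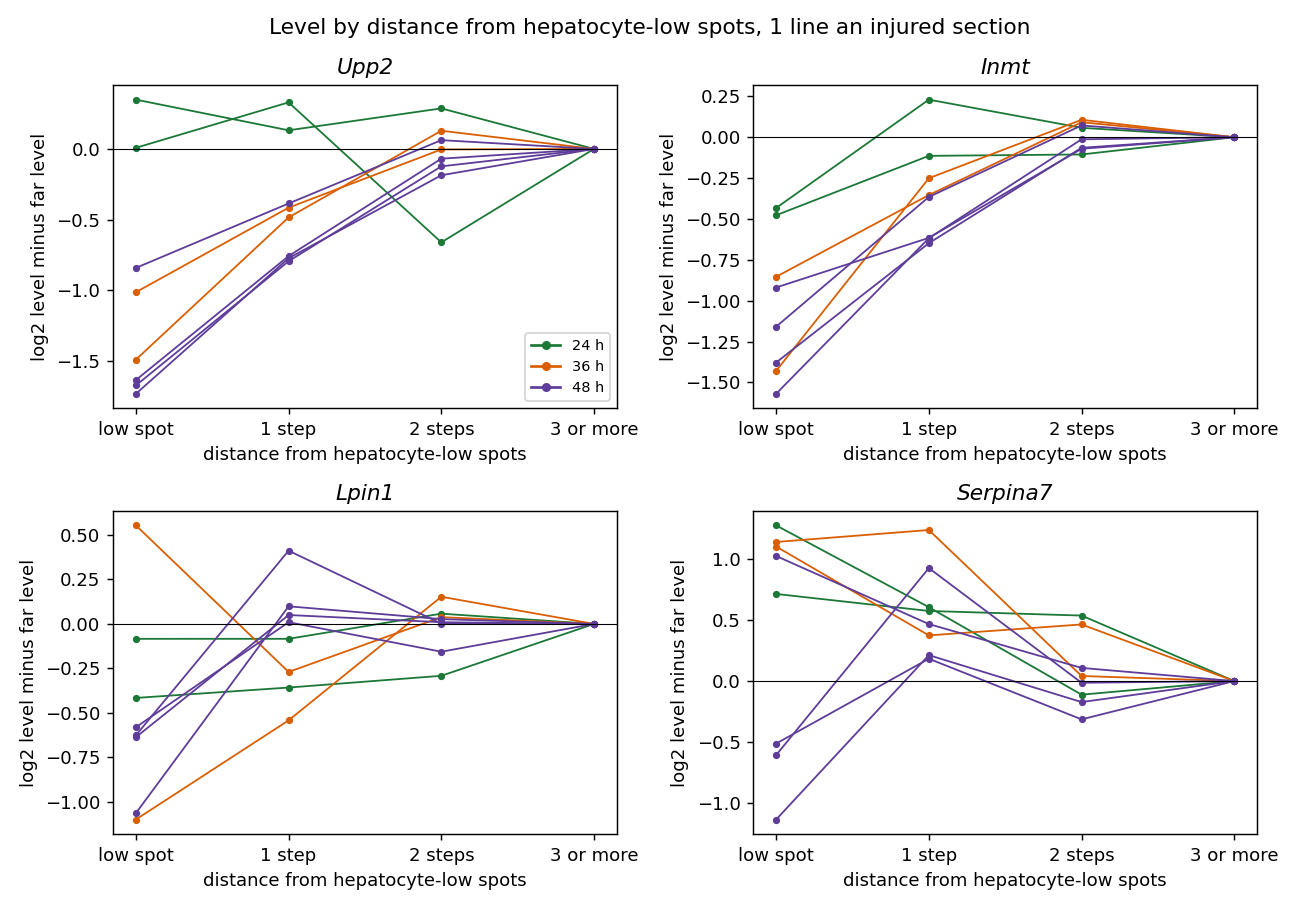
Log2 level of each gene in hepatocyte-low spots and 1 or 2 steps from them, minus the level 3 or more steps away, with 1 line per injured section. Upp2 and Inmt fall toward hepatocyte-low spots at 36 h and 48 h, and Serpina7 is higher 1 step away in all 8 sections; the low spots at 24 h and 36 h number only 7 to 25 per section.

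Among the lists of genes around these 4, the clock list held the most called genes. Of 20 clock and PAR bZIP genes, 8 rose and 3 fell between 24 h and 36 h by the edgeR test, and 2 rose and 8 fell between 36 h and 48 h. Of all genes 15.6% and 3.05% were called in these steps. The median log2 fold changes of the list were 0.69 and -0.84, against 0.02 and -0.01 over all genes. Named by the largest change were Ciart, Per3, Usp2 and Dbp, a PAR bZIP activator, whose mean ± SD was 3.54 ± 0.90 CPM in the 24 h sections, 46.1 ± 24.4 in the 36 h sections and 8.94 ± 1.63 in the 48 h sections. These too differed between the 36 h sections, with Per3 at 41.8 CPM in A and 11.6 in B, Dbp at 63.4 and 28.8, Ciart at 4.49 and 18.0, and Usp2 at 26.5 and 43.3. For the step from 24 h the list held 7 higher and 4 lower genes when 36 h A was left out, 9 and 2 when 36 h B was, 3 and 3 when 24 h A was and 5 and 2 when 24 h B was. For the step to 48 h the 8 lower genes became 3 when 36 h A was left out, 10 when 36 h B was, 1 when 48 h B was and 2 when 48 h C was. With the injured sections alone in the fit, 7 rose and 3 fell into 36 h, and 1 rose and 0 fell after it. With the section letter as a block these were 1 and 1, and 0 and 0. The hour of dosing is not given either. With the same hour of dosing for all mice, 24 h and 48 h would fall at that hour of day, and 36 h would not. Hour of day and time after APAP could then not be told apart. The part of the clock in the levels of the 4 genes was not tested.

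Of 18 fasting-response genes, 5 rose and 0 fell from 24 h to 36 h by edgeR (median log2 fold change 0.63), and 0 rose and 1 fell from there to 48 h (median -0.70), beside 15.6% and 3.05% of all genes called in either direction. Those named were Tat, tyrosine aminotransferase (99.2 ± 60.2 CPM at 24 h and 684 ± 475 at 36 h), Ppargc1a, the coactivator PGC-1α (1.67 ± 0.30 and 6.57 ± 5.07), Tsc22d3, a glucocorticoid target (32.9 ± 2.10 and 98.5 ± 29.1), and Cpt1a, the gate of fatty acid oxidation (58.1 ± 5.93 and 121 ± 31.8). Like Lpin1 they stood higher in 36 h B than in A, with Tat at 1020 and 348 CPM and Ppargc1a at 10.2 and 2.98 CPM. The 5 calls became 1 without 36 h B, 2 without 24 h B and 0 in the edgeR fit without 24 h A.

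The lists around each member are set beside the share of all genes called, 15.6% from 24 h to 36 h and 3.05% from there to 48 h, and no list was tested as a whole. Beside Upp2, 17 of 18 other genes of pyrimidine salvage and breakdown were tested, of which 4 were called higher and 2 lower at 36 h than at 24 h, and none at 48 h against 36 h by edgeR. Dpyd, which starts uracil breakdown (36.4 ± 7.29 to 88.6 ± 18.1 CPM), and Tk1, the thymidine kinase of dividing cells (9.48 ± 0.58 to 47.0 ± 10.5), rose, and Cda, cytidine deaminase (51.4 ± 19.3 to 22.7 ± 3.19), and Cad, of pyrimidine synthesis (34.1 ± 5.92 to 15.0 ± 2.42), fell. Beside Lpin1, 2 of 16 glycerolipid genes rose and 2 fell from 24 h to 36 h, and 1 rose and 1 fell from there to 48 h, counts too small to set the list apart from the share of all genes. Its paralog Lpin2 rose from 48.0 ± 8.24 to 120 ± 10.3 CPM and was 113 and 127 CPM in 36 h A and B, without the gap seen for Lpin1. Gpat4, the acyltransferase of the first step, rose from 61.4 ± 2.11 to 113 ± 8.83 CPM. Chka, choline kinase, fell from 146 ± 5.57 to 48.2 ± 8.22 CPM and rose to 125 ± 38.4 CPM at 48 h, and Agpat1 fell from 4.24 ± 0.83 to 2.04 ± 0.36 CPM after 36 h.

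Beside Inmt, 4 of 14 methyltransferase and methionine-cycle genes rose and 0 fell from 24 h to 36 h by edgeR, and none was called from there to 48 h. These were Mat1a, which makes S-adenosylmethionine in liver (548 ± 95.7 to 1948 ± 694 CPM), Hnmt, histamine methyltransferase (4.79 ± 0.23 to 15.5 ± 3.58), Gnmt, glycine methyltransferase (601 ± 128 to 1765 ± 59.9), and Ahcy, which clears the methylation by-product (185 ± 53.6 to 373 ± 53.9). None of these 4 had a gap like that of Inmt at 36 h, with Mat1a at 1458 CPM in A and 2438 in B and Gnmt at 1723 and 1808. Other genes of the list, not called and named after their values were seen, had wide gaps of the opposite sign to that of Inmt, with Nnmt, nicotinamide N-methyltransferase, at 52.4 CPM in A and 339 in B and Bhmt, betaine-homocysteine methyltransferase, at 843 and 2594. Beside Serpina7, 1 of 12 genes of thyroid hormone transport, conversion and response was called, a smaller share than the 15.6% of all genes, namely Slc10a1, a bile acid carrier that also moves thyroid hormone sulfates (157 ± 61.1 to 312 ± 27.0 CPM at 36 h), and none after 36 h. With the fit limited to the 2 times compared, 1 gene in all was called in 36 h against 24 h and 0 in 48 h against 36 h, so these counts rest on the spread being shared over all 11 sections.

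**Figure D5:**
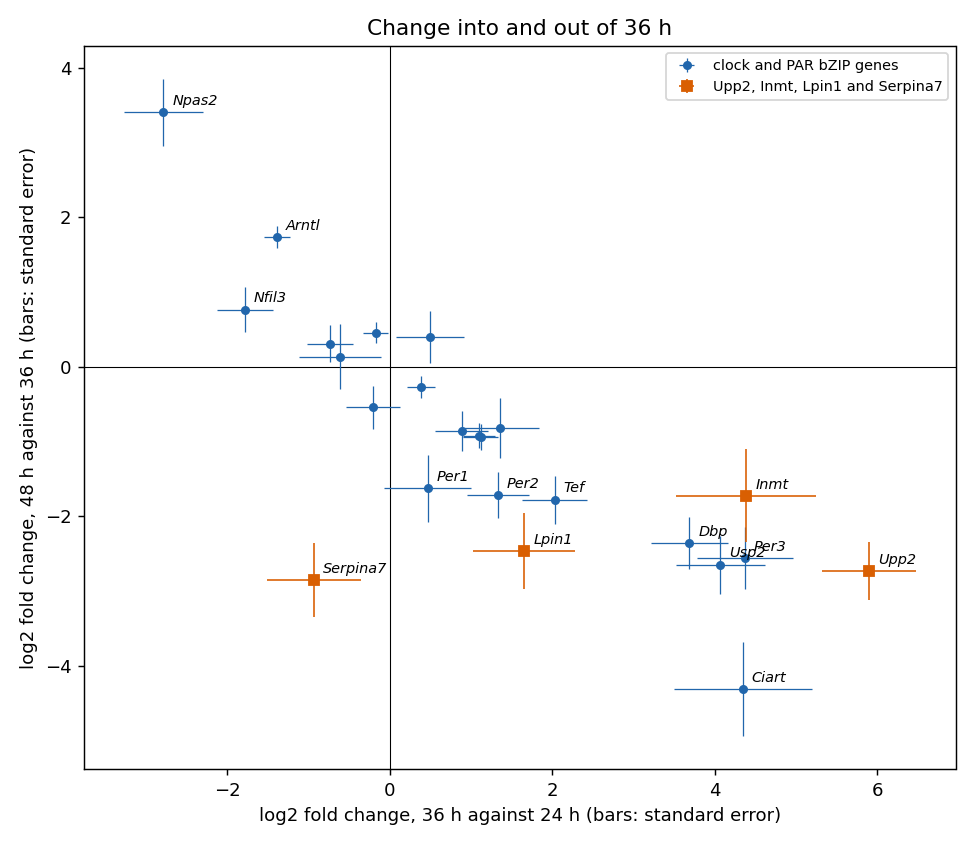
Log2 fold change of 36 h against 24 h (horizontal) and 48 h against 36 h (vertical) with standard errors, for the 20 clock and PAR bZIP genes (circles) and the 4 genes described here (squares). Ciart, Usp2, Per3 and Dbp lie with Upp2 at the lower right (higher at 36 h than at both other times), Npas2 at the upper left and Serpina7 at the lower left; Inmt and Lpin1 stand for the mean of 2 sections that differ.

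The genes whose course over the 11 sections was most like that of each member were ranked by Pearson's r of log2(CPM + 1) among 7093 genes, as a description, since sections of a time may share a mouse. For Upp2 they were Gpat4 (r = 0.95), Serhl (0.93), a serine hydrolase-like gene, and Acy1 (0.92), aminoacylase 1. Their courses were far flatter than that of Upp2, whose group means ran from 6.46 to 387 CPM. Theirs ran from 61.4 to 113, 14.7 to 27.1 and 22.6 to 37.2 CPM. For Inmt they were Ces1d (0.98), a carboxylesterase that was also higher in 36 h A than B (770 and 270 CPM), Bdh2 (0.98) and Oxld1 (0.98). For Lpin1 they were Noct (0.96), the rhythmic deadenylase-like gene nocturnin, which was 15.3 CPM in 36 h A and 47.3 in B, Plin5 (0.94), a lipid droplet coat protein (23.1 and 66.2 CPM), and Gpihbp1 (0.93), which anchors lipoprotein lipase on capillaries (60.3 and 110 CPM). For Serpina7 they were Prrc2b (0.94), Fam53c (0.93) and Gm11808 (0.92), whose courses were far flatter, with Prrc2b between 23.7 and 27.4 CPM in the group means. By Spearman's rho the 3 nearest genes shared 1 with this ranking for Upp2 (Acy1), Lpin1 (Noct) and Serpina7 (Prrc2b) and 0 for Inmt. Among the members, r was 0.76 for Upp2 and Inmt, 0.51 for Lpin1 and Serpina7, 0.49 for Upp2 and Lpin1, 0.26 for Inmt and Lpin1, and -0.12 and -0.06 for Serpina7 with Upp2 and Inmt, so the 4 genes did not follow a single course.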

How the data were processed

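With Space Ranger 1.0.0 and Ensembl gene models on mm10, the authors made a table of raw UMI counts for each section, deposited for 31053 genes and all 4992 barcodes, including those off the tissue. Seurat 4.1.1 is also named in the submitters' processing notes. Of the spots the tissue mask covers, those passing the study's filter (800 or more genes, no more than 20% of UMIs mitochondrial) entered, and its manual removal of isolated spots was not repeated. Counts were summed per section, and for position per section and class of spots. Scores were computed on spots thinned to 2000 UMIs, and no section gave fewer than 20 spots in a class compared. Sums were tested with edgeR 4.0.16 (R 4.3.3) by quasi-likelihood, with TMM scaling, filterByExpr and robust dispersion, in fits of 11 sections (14821 genes), 22 zone sums (13791 genes) and 16 ring sums from the 8 injured sections (14207 genes). Standard errors were derived from the log2 fold change and its F statistic. Each test was two-sided, p was adjusted over all genes of a fit by Benjamini and Hochberg's method, and a gene was called at an adjusted p under 0.05. The steps were tested on simulated counts. DESeq2 1.42.0, total-count scaling, no filter, other spot classes and leaving out each section were tried as alternatives. Depth limits low genes, and intervals between sections cover no variation between mice.

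The members, the gene lists and the tests were chosen with earlier results of these data known. Named were the 4 genes, the 3 genes nearest to each in course among those with a mean of at least 10 CPM, up to 4 called genes with a mean of at least 1 CPM per pathway list by largest change, and the first 5 genes on either side of 36 h. Zone modules came from the study's own spatial data. Pemt is in the lipid and methylation lists, Pck1 in the fasting and portal check lists, and Alb and Ttr in the thyroid and hepatocyte lists, and 1 hepatocyte marker (Tf) was not matched.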

Additional observations from a re-analysis of the deposited data

Results flagged for a closer look

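In 48 h section B the log2 difference between spots next to and far from hepatocyte-low spots, on unscaled levels, was -0.386 for Upp2 and -0.365 for Inmt, set apart from the other 48 h sections, which ran from -0.79 to -0.76 and from -0.65 to -0.62. Of 16 groups of 4 sections examined in this way, 2 stood out, and chance sets apart about 1 group in 20. Section 48 h B had the fewest spots of the 48 h sections.

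The central minus portal difference changed between 36 h and 48 h by -0.38 for Upp2 and -0.39 for Inmt on the log2 scale, by the test of the difference itself, and the call was lost in 10 of 17 alternatives for Upp2 and in 5 of 17 for Inmt.

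Barcodes off the tissue, which no comparison used, carried more of some genes after injury than in any 0 h section. Upp2 off the tissue was 236 unscaled CPM in 36 h A, 341 in 36 h B and 101 in 48 h A, against at most 62.1 at 0 h. Inmt was 1560 in 36 h A, against at most 1084. Lpin1 was 178 in 36 h B, against at most 67.0. Serpina7 was 61.3 in 24 h A, 95.7 in 24 h B and 61.0 in 36 h A, against at most 44.2. The gap between 36 h A and B for Inmt (1560 and 235) and Lpin1 (27.7 and 178) appeared off the tissue as well.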

How the results depend on the processing

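Of 404 member values recomputed without 1 section, 353 kept their direction and side of the threshold, 28 lost the call, 8 gained one and 15 changed sign, and of 224 from the other alternatives 188, 14, 8 and 14 did so. The causes were not tested. Counts of called genes moved more. Without each section in turn they ran from 450 to 3198 for 36 h against 24 h, 45 to 1130 for 48 h against 36 h, 1497 to 2744, 909 to 3106 and 35 to 1456 for the zone classes at 0 h, 24 h and 36 h, 15 to 663 and 51 to 758 for the zone difference up to and after 36 h, and 287 to 881 and 346 to 934 for the rings at 24 h and 36 h. With only the times compared, 1 and 0 genes were called by edgeR in the steps into and out of 36 h. The zone counts were 4293, 1111 and 8107 at 24 h, 36 h and 48 h with total-count scaling, 1509, 1735 and 3286 at 0 h, 24 h and 48 h with DESeq2, and 1781 at 36 h with scores from all UMIs. The zone difference count was 553 and 539 with no filter and 180 and 160 with DESeq2 before and after 36 h, and after 36 h 874 with scores from all UMIs and 69 with hepatocyte-low spots included. DESeq2 called 1224 genes in 48 h against 36 h. The ring counts were 1271 and 1665 at 24 h and 36 h with a 5% limit, and 211, 63 and 3379 at 24 h, 36 h and 48 h with a ring of 2 steps.

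Signs that turned belonged mostly to values near 0. The Lpin1 step into 36 h ran from -0.0069 to 2.41 and the Inmt step out of it from -2.58 to 0.58 without each section. On leaving out a section the zone value ran from -0.25 to 0.062 (Inmt, 24 h), -0.36 to 0.0034 (Inmt, 36 h), -0.13 to 0.024 (Lpin1, 36 h) and -0.040 to 0.070 (Lpin1, 48 h). Likewise the zone difference ran from -0.20 to 0.55 (Upp2) and -0.31 to 0.059 (Inmt) up to 36 h, and from -0.012 to 0.16 (Lpin1) and -0.16 to 0.86 (Serpina7) after it, and the Upp2 ring value at 24 h from -0.062 to 0.072. Total-count scaling moved the median of all genes from 0.04 to 0.49 for injured against 0 h, to between 0.05 and 0.21 for the zones and to between 0.15 and 0.25 for the rings. With it the zone value was 0.13 for Inmt at 24 h and 0.011 and 0.20 for Lpin1 at 36 h and 48 h, the Upp2 zone difference -0.023, and the ring value 0.18 for Upp2 at 24 h and 0.11 for Lpin1 at 48 h. Narrower outer classes gave 0.0057 for Inmt at 24 h and -0.050 for the Upp2 zone difference up to 36 h, and scores from all UMIs gave -0.047 for the latter and -0.010 for that of Lpin1 after 36 h. Lpin1 at 48 h was 0.016 with hepatocyte-low spots included and 0.020 with DESeq2. The Upp2 ring value at 24 h was 0.0081 with a ring of 2 steps and 0.026 with DESeq2.

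With the section letter as a replicate block over the injured sections, 82 genes were called in 36 h against 24 h and 0 in 48 h against 36 h (edgeR), against 984 and 7 in the same sections without the block. The Upp2 log2 changes were 5.98 and -2.66 with the block. Deviations of sections with the same letter correlated at 0.46 between 24 h and 36 h but at -0.17 between 24 h and 48 h and at 0.017 (A) and -0.27 (B) between 36 h and 48 h, over 7093 genes. The letter was therefore not taken to pair sections across all times. Whether it pairs the 24 h with the 36 h sections was not tested. The fit of injured sections without the block, and the counts for each 36 h section alone, were chosen after seeing the data. Depth limits Serpina7 at 48 h and Upp2 at 24 h.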
